A study of Mus musculus with 4 samples.

Results

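The response to flagellin was described in the nasal mucosa of mice labelled Duox2-/-, as the difference between 2 of the 4 arrays of the study: the array of mucosa given flagellin minus the array of mucosa given PBS. All groups carried the strain label C56BL/6, and the mice were 8 weeks old. The 4 groups were wild type (Duox2+/+) with PBS, wild type with flagellin, Duox2-/- with PBS and Duox2-/- with flagellin. The flagellin solution held 5 ug/ml, 25 ul of solution went into each nostril, and the time given is 4 h. RNA came from the mucosa lifted off the septum and turbinates, was isolated with TRIzol, labelled with biotin and measured on an Affymetrix array that reads whole transcripts. Each group had 1 array, so no value below has a replicate, no p-value is given, and genes were described by size. The sources used here do not say whether an array held RNA of 1 mouse or of a pool, how the Duox2 allele was made, or which genome build underlies the probe sets. Values are log2 RMA values, on which a difference of 1 is 2-fold. They are given in the order wild-type PBS, wild-type flagellin, Duox2-/- PBS and Duox2-/- flagellin, and levels are compared between arrays, not between genes.

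Flagellin is the protein subunit of the bacterial flagellum. Epithelial cells and leukocytes sense it outside the cell through the Toll-like receptor TLR5, whose adaptor MyD88 leads to activation of NF-kB, and inside the cell through NAIP proteins and NLRC4. NF-kB switches on genes for chemokines that call in neutrophils, for interleukin-1, for proteins that withhold iron and for its own inhibitors. Duox2 is an NADPH oxidase of epithelial surfaces that releases hydrogen peroxide, which peroxidases use in defence, and Duoxa2 is the partner it needs to mature and reach the membrane. The comparison asks how the mucosa answers flagellin where this oxidase is missing by the label.

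Duox2 itself read 4.95, 5.12, 5.23 and 5.50, under the level of 6.52 (the median of all values, used here as the limit for bright genes) in all 4 arrays. The arrays labelled Duox2-/- were not lower. The position of its probes relative to the deleted or changed sequence is unknown here, and the reading may check nothing about the genotype. Duoxa2 read 5.59, 5.88, 5.27 and 5.81 and Duoxa1, the partner of Duox1, read 6.26, 6.27, 6.30 and 6.56. Duox1 differed by -0.063 between the Duox2-/- arrays. Tlr5 was not analysed here.

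The tissue label was checked against marker genes. Markers of olfactory neurons had median levels of 9.67, 9.65, 9.57 and 9.90, with 26 of 27 bright in at least 1 array, and Omp, the protein that marks mature olfactory neurons, read 11.94, 11.99, 11.85 and 12.16. Foxj1, the master regulator of ciliated cells, read 8.14, 7.90, 7.92 and 7.79, and 23 of 28 ciliated cell markers were bright. All 4 arrays therefore held olfactory and ciliated epithelium by these markers. Markers of neighbouring tissues differed more between arrays. Skeletal muscle markers had median levels of 5.33, 5.88, 6.53 and 5.83 and enamel and dentine markers 5.63, 5.40, 7.0 and 6.17, highest in the Duox2-/- PBS array in each case.

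The spread of values also differed between arrays. The interquartile range over all probe sets was 2.79, 2.73, 2.54 and 2.43. In the Duox2-/- pair the median difference ran from 0.093 for genes with a mean level under 5 and 0.13 for those between 5 and 6 to -0.13 between 8 and 9 and -0.12 at 9 and above. In the wild-type pair the same medians lay between -0.012 and 0.045. Over the bright genes of the Duox2-/- pair the median difference was -0.070, its robust SD over genes was 0.231, and 37.8% of genes lay above 0. In wild type these were -0.0018, 0.145 and 49.5%. The part of this drift in the small differences below was not tested. The plot of differences against level shows it as a sloping line of medians.

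**Figure D1:**
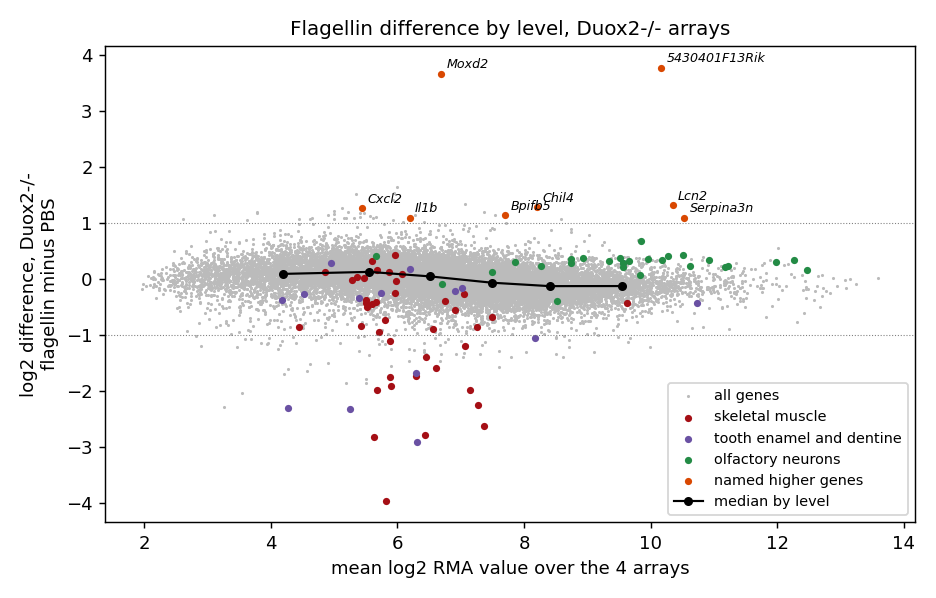
Difference between the Duox2-/- flagellin and PBS arrays (log2, vertical axis) against the mean log2 value of the 4 arrays (horizontal axis) for 19938 genes. Grey points are all genes, coloured points are members of 3 lists and 8 named higher genes, and the black line joins the medians of 6 level classes, which go from 0.093 to -0.12. Dotted lines mark 2-fold. Skeletal muscle and tooth genes reach down to -3.95 and -2.90.

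Of 12471 bright genes, 22 were at least 2-fold higher after flagellin in the Duox2-/- pair (0.176%) and 63 were at least 2-fold lower (0.505%). In wild type the counts were 115 higher (0.922%) and 7 lower (0.0561%). Over all 19938 genes, dim ones included, they were 44 higher (0.221%) and 93 lower (0.466%) in Duox2-/- and 167 (0.838%) and 11 (0.0552%) in wild type. The 22 higher genes comprised 10 olfactory receptor genes, 2 microRNA genes, 2 predicted or uncharacterised genes and 8 others. Of the 22, 14 were also at least 2-fold higher in wild type, which is 14 of 115 from the wild-type side, and 20 of 22 lay above 0 there. The lower genes overlapped less by count: 1 of 63 was at least 2-fold lower in wild type as well, 28 of 63 lay below 0 there, and 10 of 63 were at least 2-fold higher there. Whether the responses of the genotypes differ could not be tested with 1 array a group.

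Among the higher genes were genes of the NF-kB response. Cxcl2, a chemokine that attracts neutrophils through CXCR2, read 4.40, 6.83, 4.64 and 5.90. The Duox2-/- difference was 1.26 and the wild-type difference 2.43, and both flagellin arrays lay above both PBS arrays. Il1b, the precursor of the cytokine interleukin-1 beta, read 5.79, 7.09, 5.40 and 6.50 and differed by 1.09 in Duox2-/- and 1.30 in wild type. Its flagellin arrays again lay above both PBS arrays. For Cxcl2 and Il1b both Duox2-/- arrays were under the level for bright genes, which the wild-type flagellin array alone reached.

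Other genes of this response were higher by less than 2-fold. Ccl20, which attracts CCR6-bearing lymphocytes and dendritic cells, read 5.97, 8.44, 6.41 and 7.31, a difference of 0.90 in Duox2-/- against 2.48 in wild type. Tnip3, a feedback inhibitor of NF-kB, read 5.49, 7.58, 5.28 and 6.15, and Tnfaip2, a gene induced by tumour necrosis factor, read 7.92, 9.88, 7.51 and 8.39. Their Duox2-/- differences were 0.86 and 0.88, against 2.10 and 1.96 in wild type. Icam1, the adhesion molecule that leukocytes grip on endothelium and epithelium, differed by 0.73 and 1.0. In these 4 genes the Duox2-/- flagellin array lay above both PBS arrays and below the wild-type flagellin array. Tnip3 was bright through the wild-type flagellin array alone, with both Duox2-/- arrays under the level for bright genes.

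**Figure D2:**
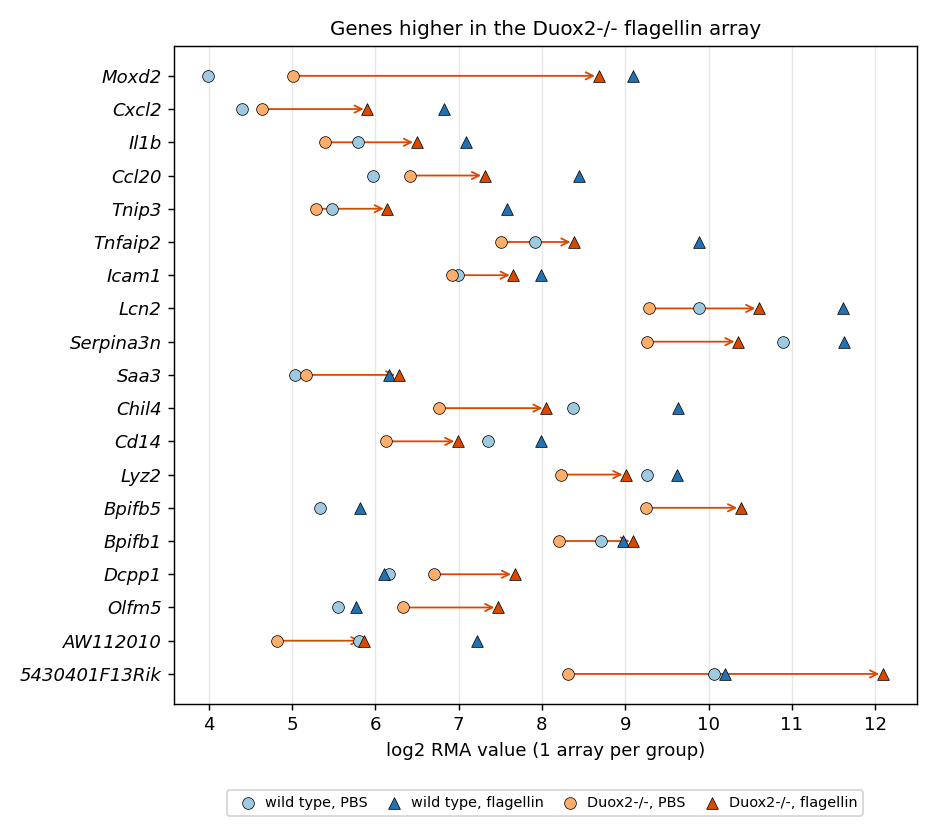
Log2 RMA values (horizontal axis) of 19 genes that were higher in the Duox2-/- flagellin array than in the Duox2-/- PBS array. Circles are PBS and triangles flagellin, blue is wild type and orange Duox2-/-, with 1 array per group, and the arrow runs from PBS to flagellin in Duox2-/-. Moxd2 goes from 5.01 to 8.68 and Lcn2 from 9.28 to 10.60, while Bpifb5 is above 9 in both Duox2-/- arrays and below 6 in both wild-type arrays.

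Promoter sequence is shown for genes of this group that hold the NF-kB consensus, a motif of 10 bases known as the site that NF-kB dimers bind. The motif was searched on both strands from 250 bases before to 50 bases after each start in RefSeq windows (GRCm38.p6). The 150 bases before the start are printed 5′ to 3′ on the gene's strand, with matches in capitals. Cxcl2 lies at chr5:90903749-90903898 on the plus strand, where 2 overlapping matches begin 97 bases before the start. Ccl20 lies at chr1:83116616-83116765 (plus strand, match 80 bases before the start), Tnip3 at chr6:65590248-65590397 (plus strand, 54 bases) and AW112010 at chr19:11050567-11050716 (minus strand, 70 bases). Moxd2, at chr6:40887495-40887644 on the minus strand, is shown as the gene with the highest difference among those with an established symbol, and its window held no match.
Cxcl2: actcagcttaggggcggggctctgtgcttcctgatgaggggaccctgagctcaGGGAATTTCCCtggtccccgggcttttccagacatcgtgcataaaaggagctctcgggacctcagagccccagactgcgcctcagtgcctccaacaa
Ccl20: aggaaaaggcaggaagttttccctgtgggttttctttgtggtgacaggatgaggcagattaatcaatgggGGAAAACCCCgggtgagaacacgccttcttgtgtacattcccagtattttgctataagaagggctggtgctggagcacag
Tnip3: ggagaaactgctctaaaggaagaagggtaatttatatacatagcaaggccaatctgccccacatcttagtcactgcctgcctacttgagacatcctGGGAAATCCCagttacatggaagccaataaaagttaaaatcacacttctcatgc
AW112010: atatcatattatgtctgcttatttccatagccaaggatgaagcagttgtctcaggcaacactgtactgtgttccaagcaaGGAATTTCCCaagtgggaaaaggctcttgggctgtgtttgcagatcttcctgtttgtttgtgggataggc
Moxd2: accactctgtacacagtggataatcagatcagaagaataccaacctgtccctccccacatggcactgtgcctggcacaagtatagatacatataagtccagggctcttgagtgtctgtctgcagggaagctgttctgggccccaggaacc
Of the 7 genes Cxcl2, Il1b, Ccl20, Tnip3, Tnfaip2, Icam1 and AW112010, which all had a window, 4 held the motif, and these 4 were printed for holding it. Nfkbia and Cxcl1 also held it. The motif was in 1480 of 32851 windows of the same length (4.51%). That share counts windows, while a gene is counted here if any of its windows held the motif, so the units differ. Among the 25 highest genes outside the gene families, 24 had a window and 3 held it, and among the 25 lowest, 20 had a window and 2 held it. A match describes the letters and is no evidence of binding, and no match says only that these letters are not in this window.

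AW112010, a transcript listed without a gene name and known as interferon- and lipopolysaccharide-induced, read 5.80, 7.22, 4.82 and 5.87. It differed by 1.05 in Duox2-/- and 1.41 in wild type. Its Duox2-/- flagellin array was at about the level of the wild-type PBS array, and the Duox2-/- PBS array was the lowest of the 4. Only the wild-type flagellin array reached the level for bright genes.

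As lists, the signalling genes moved little. The 9 chemokines and receptors of neutrophil attraction had a median difference of 0.37 in Duox2-/- with 9 of 9 above 0, against a median of -0.0072 and 48.7% above 0 over all 19938 genes. Besides Cxcl2, Ppbp, a platelet-derived CXCR2 ligand, was at 0.61 and Cxcl5, an epithelial one, at 0.43. Of these 9 genes, 4 were bright. Of the other chemokines, 19 of 29 lay above 0, the median was 0.13, and the highest after Ccl20 was the neutrophil and monocyte attractant Ccl3 at 0.37. Ccl5, made by T and NK cells, was at -0.55.

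NF-kB subunits and feedback inhibitors had a median of 0.097 in Duox2-/- and 0.30 in wild type, with 16 of 24 and 19 of 24 above 0. Bcl3, a nuclear cofactor of NF-kB, was at 0.67 in Duox2-/- and 0.68 in wild type. Nfkbia, which codes for the classic inhibitor IkB-alpha, was at -0.25 and 0.50, and Tnfaip3, the deubiquitinase A20, at 0.011 and 0.82. The subunit gene Rel was at -0.66 and 0.27. No member was 2-fold higher in the Duox2-/- pair.

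Receptors of bacterial products differed in both directions. Of 21 sensing genes, 10 of them bright, 8 lay above 0, with a median of -0.10. Over all genes, dim ones included, 48.7% lay above 0 and the median was -0.0072. The bright sensing genes alone had a median of -0.15, beside -0.070 over all bright genes. Cd14, which hands lipopolysaccharide to TLR4 and MD-2, was higher by 0.86, while Tlr4 was at -0.84 and Ly96, the gene of MD-2, at -0.68. The same 3 genes were at 0.63, 0.12 and 0.41 in wild type. Cd14 read 7.36, 7.99, 6.13 and 6.99, so its Duox2-/- flagellin array stayed below the wild-type PBS array. Nlrc4, the inflammasome adaptor for cytosolic flagellin, was at -0.32 and Naip5, its flagellin sensor, at -0.13, both under the level for bright genes. Adaptors and kinases downstream of the receptors had a median of -0.10, with Myd88 at -0.13. That median was -0.031 under quantile and -0.0097 under loess normalisation.

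Il1rl2, the receptor of the epithelial cytokine interleukin-36, went the other way from Il1b. It read 7.49, 7.44, 7.11 and 6.00, so that the Duox2-/- flagellin array was the lowest by more than 2-fold. Its ligand gene Il1f9 was at 0.30 in Duox2-/- and 1.53 in wild type. The interleukin-1 family as a whole had a median of 0.066. Other inflammatory cytokines had a median of 0.21, and 20 of 23 lay above 0, but 1 of 23 was bright, and dim genes as a class had a median of 0.10.

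Some genes of the acute phase and of iron withholding were higher. Lcn2, the siderophore-binding lipocalin, read 9.88, 11.61, 9.28 and 10.60. It differed by 1.32 in Duox2-/- and by 1.73 in wild type, and each Duox2-/- array was below the wild-type array of the same treatment. Serpina3n, a serine protease inhibitor, read 10.89, 11.62, 9.26 and 10.35, so its Duox2-/- flagellin array, though 1.1 above its own PBS array, stayed below the wild-type PBS array. Saa3, a serum amyloid made outside the liver, read 5.04, 6.16, 5.17 and 6.28 and differed by 1.12, but it was below the level for bright genes in every array. Steap4, a metalloreductase induced by inflammation, was at 0.70.

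The rest of that list did not follow. Its median was 0.025, with 13 of 23 above 0, and -0.025 under loess normalisation. Ltf, lactoferrin, was at -0.76, Cp, ceruloplasmin, at -0.46 and the pentraxin gene Ptx3 at -0.41. In wild type the list median was 0.22. Of the complement genes, Cfb of the alternative pathway was at 0.48 in Duox2-/- and 1.91 in wild type, and the median of 24 was -0.055.

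Among chitinase-like genes, whose proteins bind chitin without cleaving it, Chil4 read 8.37, 9.64, 6.76 and 8.05 and Chil1 was at 0.66. Chil4 differed by 1.29 in Duox2-/- and 1.27 in wild type from lower levels in Duox2-/-. Its near copy Chil3 differed by 0.019 in Duox2-/- and 2.12 in wild type. Probe sets of near-identical copies can share signal, so the split between these 2 genes is uncertain. The same holds below for Dcpp1 and Dcpp3, for Serpina3n and its copies, for the Bpifb genes and for the myosin heavy chain genes.

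Some genes of secretory products were higher, 1 of them by 2-fold or more. Bpifb5, of the family of lipid-binding BPI fold proteins, read 5.33, 5.82, 9.25 and 10.39, a difference of 1.14 on top of levels that in both Duox2-/- arrays were far above wild type. Bpifb1, a secreted airway member of that family, read 8.71, 8.97, 8.21 and 9.10. Lyz2, the lysozyme of macrophages and airway cells, read 9.27, 9.62, 8.23 and 9.01, and Dcpp1, a protein of gland secretions, read 6.17, 6.10, 6.70 and 7.67. Their Duox2-/- differences were 0.89, 0.78 and 0.97, and the wild-type differences 0.26, 0.35 and -0.066. For Lyz2 the Duox2-/- flagellin array stayed below the wild-type PBS array, whereas for Bpifb1 and Dcpp1 it was the highest of the 4.

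Not all secretory genes were higher. The gland secretion list had 18 of 36 members above 0 and a median of -0.041. In the list of epithelial antimicrobials, 17 of 28 lay above 0, with Pglyrp1, a peptidoglycan-binding protein, at -0.88 and Pigr, which carries IgA across the epithelium, at -0.61 in Duox2-/- and 0.65 in wild type. Muc5b, the main gel-forming mucin of glands, was at 0.36 and Muc5ac, that of goblet cells, at -0.76. Bpifa1, an abundant airway surface protein, differed by 0.062.

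The highest differences of all belonged to 5430401F13Rik and Moxd2. 5430401F13Rik, an uncharacterised gene, read 10.06, 10.19, 8.31 and 12.09. The Duox2-/- PBS array was the lowest and the Duox2-/- flagellin array the highest, and the wild-type arrays lay between them, 0.13 apart. Moxd2, whose predicted product belongs to the copper monooxygenases with dopamine beta-hydroxylase, read 3.99, 9.10, 5.01 and 8.68. Both flagellin arrays were high and both PBS arrays low, with differences of 3.67 in Duox2-/- and 5.10 in wild type. Its relatives were at 0.085 (Dbh), -0.020 (Moxd1) and -0.63 (Pam, the enzyme that amidates peptides). Olfm5, an olfactomedin gene, read 5.55, 5.77, 6.33 and 7.47, with both Duox2-/- arrays above both wild-type arrays. It was bright through the Duox2-/- flagellin array alone, so it had to be higher there.

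Markers of leukocytes were mixed. Neutrophil markers had a median difference of 0.18 in Duox2-/- and 0.74 in wild type. The granule protein gene Ngp read 5.47, 8.44, 7.15 and 6.99 and the calgranulin gene S100a8 read 5.57, 7.4, 6.36 and 6.82. Ngp was thus -0.16 apart in the Duox2-/- pair and 2.97 apart in wild type, and S100a8 0.45 and 1.83. In bulk tissue, fewer cells of a type and less RNA per cell cannot be told apart. Retnlg, a neutrophil resistin-like gene, was at 0.21 and 1.8, and Cxcr2, the receptor of Cxcl2, at 0.29 and 1.25. Of 27 markers, 1 was 2-fold higher in the Duox2-/- pair, namely Lcn2, which epithelium makes as well.

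Some genes of antigen presentation and of monocytes were lower in the Duox2-/- pair and higher in the wild-type pair. H2-Aa, an MHC class II chain, read 8.81, 9.54, 8.35 and 7.4 and differed by -0.94 in Duox2-/- and 0.74 in wild type. H2-Ab1, its partner chain, was at -0.73 and 0.72, and Cd74, the invariant chain, at -0.50 and 0.65. The MHC class II list as a whole had 4 of 10 above 0 and a median of -0.12 in Duox2-/-, against 10 of 10 and 0.43 in wild type. The macrophage list had 9 of 26 above 0 and a median of -0.086 against 0.39, and the Duox2-/- flagellin array was the lowest of 4 for 16 of 26 members. Ccr2, the receptor that draws monocytes into tissue, was at -0.63 and 1.24, and the macrophage scavenger receptor Cd163 at -0.62 and 0.64. Ccr2 read 6.11, 7.35, 5.98 and 5.35, with both Duox2-/- arrays under the level for bright genes. Cd163 read 5.84, 6.48, 6.53 and 5.91, reaching that level in the Duox2-/- PBS array alone. Against them, Cd14 and Lyz2 were at 0.86 and 0.78, though in both the Duox2-/- flagellin array stayed below the wild-type PBS array. Dendritic cell markers had 9 of 13 above 0 and a median of 0.064. None of these markers passed 2-fold in the Duox2-/- pair. The list medians cover dim members as well and stand beside -0.0072 over all 19938 genes. Over bright members alone they were -0.50 for 5 MHC class II genes, -0.13 for 19 macrophage genes and -0.11 for 4 dendritic cell genes. Over all bright genes the median was -0.070.

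Olfactory neuron markers were slightly higher as a list. The median was 0.30 in Duox2-/- with 25 of 27 above 0, and 0.12 in wild type with 24 of 27 above 0. Over all bright genes 37.8% lay above 0 in Duox2-/- and 49.5% in wild type. The Duox2-/- flagellin array was the highest of 4 for 23 of 27. Kirrel2, an adhesion protein that sorts olfactory axons, was at 0.67, Ano2, the chloride channel of olfactory cilia, at 0.42, and Adcy3, the odorant-activated cyclase, at 0.35. For immature neurons and progenitors 18 of 19 lay above 0 and the median was 0.14 in Duox2-/-, against 9 of 19 and -0.0002 in wild type. Quantile or loess normalisation gave 0.41 for the neuron list. No member reached 2-fold.

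Olfactory receptor genes made up 413 of the bright genes. Each receptor is expressed in a small share of olfactory neurons. Their median levels were 6.65, 6.89, 6.94 and 7.18, so each Duox2-/- array was above the wild-type array of the same treatment, and each flagellin array was above the PBS array of its genotype. The median difference was 0.20 in Duox2-/- with 320 of 413 above 0, and 10 receptors were 2-fold higher and 3 lower. Of the higher ones, Olfr536, Olfr1257, Olfr170 and Olfr1262 were bright through the Duox2-/- flagellin array alone, so they had to be higher there. Of the lower ones, Olfr847 and Olfr1002 were bright through the Duox2-/- PBS array alone, so they had to be lower. The median and the counts over the 413 genes include such receptors. Over all bright genes 37.8% lay above 0 in Duox2-/-, 0.176% were 2-fold higher and 0.505% lower. In wild type 50 receptors were 2-fold higher, 8 of them also in Duox2-/-, and the wild-type share over all bright genes was 0.922%. Over the 50 receptors chosen for their wild-type difference, the Duox2-/- median was 0.57 and 45 lay above 0. Olfr536 read 4.53, 6.06, 5.87 and 7.52 and Olfr168 read 5.58, 7.12, 7.13 and 8.46. In both the Duox2-/- flagellin array was the highest. Receptor genes are close copies of each other and their probe sets may share signal.

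MicroRNA genes were also on the higher side of the Duox2-/- pair, led by the miR-200 family. These microRNAs repress the transcription factors Zeb1 and Zeb2 and so keep cells epithelial. The mature sequences are shown because the family falls into 2 groups by seed, bases 2 to 8, printed in capitals, and members of both groups were measured. Sequences are from RefSeq (GRCm38.p6), and all lie on the minus strand, Mir141 and Mir200c together on chromosome 6 and Mir200a, Mir200b and Mir429 together on chromosome 4.
miR-141-3p: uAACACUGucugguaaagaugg
miR-200a-3p: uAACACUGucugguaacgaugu
miR-200b-3p: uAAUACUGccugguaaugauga
miR-200c-3p: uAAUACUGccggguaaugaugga
miR-429-3p: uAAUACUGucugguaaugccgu
miR-141 and miR-200a share the seed AACACUG, and miR-200b, miR-200c and miR-429 share AAUACUG. The array has probe sets for the genes and was not shown to measure the mature strands.

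Mir141 read 6.81, 5.94, 4.80 and 6.20 and Mir200b read 9.03, 8.78, 7.72 and 8.80, the 2 bright microRNA genes past 2-fold with 1.41 and 1.08. Mir141 was bright through the wild-type PBS array alone, with both Duox2-/- arrays under the level for bright genes. Mir200a read 9.25, 8.96, 7.95 and 8.80 and Mir200c read 7.4, 6.70, 6.55 and 7.18, with differences of 0.85 and 0.63. In all 4 the Duox2-/- PBS array was the lowest, the wild-type PBS array was the highest, and the wild-type difference was negative, from -0.88 to -0.26. Mir429 was not analysed here. The members of both seeds and of both clusters thus had the same order of PBS arrays.

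The miR-183 cluster, a group on chromosome 6 known from sensory cells, had the same order at dimmer levels. Mir182 read 6.28, 5.79, 4.65 and 5.74, Mir96 read 6.44, 6.11, 5.42 and 6.23 and Mir183 read 3.88, 3.63, 3.11 and 3.60. All 3 stayed below the level for bright genes. Their differences in Duox2-/- were 1.09, 0.81 and 0.50. Over the 78 bright microRNA genes of 296, the Duox2-/- median was 0.30, 63 lay above 0, 2 were 2-fold higher and 0 lower, while the wild-type median was -0.0026. Over all bright genes 37.8% lay above 0 in Duox2-/-, 0.176% were 2-fold higher and 0.505% lower. The microRNA clusters were picked after their values were seen.

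**Figure D3:**
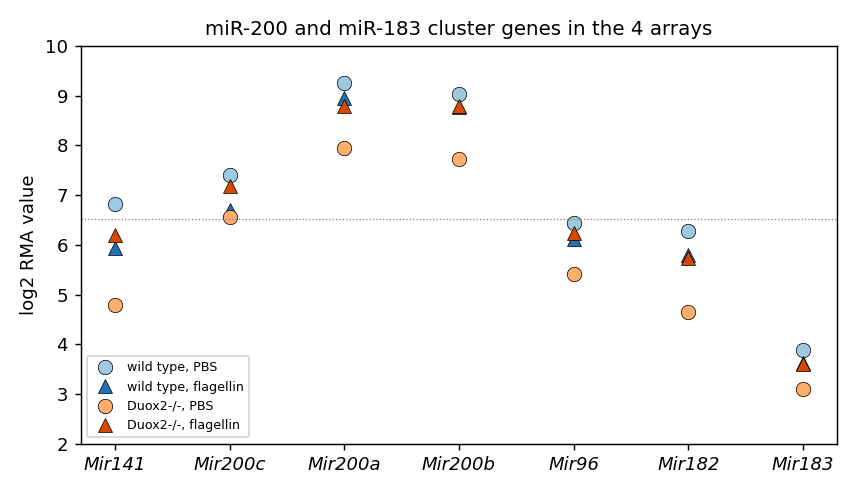
Log2 RMA values (vertical axis) of 7 microRNA genes of the miR-200 and miR-183 families in the 4 arrays, with circles for PBS, triangles for flagellin, blue for wild type and orange for Duox2-/-. The dotted line is the level of 6.52. The Duox2-/- PBS array is the lowest for each gene, for example 4.80 for Mir141 and 7.72 for Mir200b.

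On the lower side, genes of skeletal muscle had the largest differences. Myh1, a fast myosin heavy chain, read 4.07, 6.20, 8.49 and 4.53, a difference of -3.95 in Duox2-/- and 2.13 in wild type. Ttn, titin, read 5.00, 6.98, 8.26 and 5.48, and Atp2a1, the calcium pump of fast muscle, read 5.84, 8.24, 9.02 and 6.39. In each the Duox2-/- PBS array was the highest, the wild-type flagellin array came next, and the Duox2-/- flagellin array lay nearest to the wild-type PBS array. Myh2 was at -2.82, the troponin gene Tnnt3 at -2.24, the actin gene Acta1 at -1.97 and the nebulin gene Neb at -1.92.

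Of 41 muscle genes, 14 were 2-fold lower in the Duox2-/- pair, 33 lay below 0, and the median was -0.67, against 0.47 in wild type. Over all 19938 genes 0.466% were 2-fold lower in Duox2-/-. Of the 14, Myh1, Myh2, Myl1, Neb, Myot, Actn2 and Tnnc2 were bright through the Duox2-/- PBS array alone. These genes therefore had to be lower in the Duox2-/- flagellin array. The Duox2-/- PBS array was the highest of 4 for 32 of 41 muscle genes. For Myh1, Ttn and Atp2a1 the sign turns when the wild-type PBS array is taken as the reference: Myh1 is then at 0.46, Ttn at 0.47 and Atp2a1 at 0.55. The slow muscle genes Myh7, Tnnt1 and Tnnc1, dim in all arrays, were at 0.12, 0.091 and 0.43.

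The Duox2-/- PBS array was also the highest for genes of tooth formation. Ambn, ameloblastin of the enamel matrix, read 4.77, 5.09, 9.15 and 6.24. Amelx, amelogenin, read 4.23, 4.20, 7.46 and 5.14, and Dspp, which codes for the dentine proteins, read 5.77, 5.40, 7.85 and 6.17. Their differences in Duox2-/- were -2.90, -2.31 and -1.68, and in wild type 0.32, -0.030 and -0.37. Enam, enamelin, read 3.29, 3.42, 6.33 and 4.03 and Dmp1, a matrix protein of dentine and bone, was at -1.04. Of 15 matched genes 5 were 2-fold lower, 4 of them bright, and the list median was -0.34. Over all 19938 genes 0.466% were 2-fold lower in Duox2-/-. Ambn, Amelx and Dspp were bright through the Duox2-/- PBS array alone, so they had to be lower in the flagellin array. In Ambn, Amelx, Dspp and Enam the Duox2-/- flagellin array was itself above both wild-type arrays.

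Vomeronasal receptor genes were a further such set. These receptors are made in the vomeronasal organ, which lies at the base of the septum. Vmn1r89 read 4.64, 4.46, 7.37 and 5.52 and Vmn2r1, a receptor of the basal vomeronasal layer, read 5.05, 4.84, 6.94 and 5.16. Both reached the level for bright genes through the Duox2-/- PBS array alone, as did the other 3 bright vomeronasal receptor genes that were 2-fold lower, so these genes had to differ. Over all 163 vomeronasal receptor genes, bright or dim, 27 lay above 0, 20 were 2-fold lower and 0 were 2-fold higher in Duox2-/-, and the median was -0.36 against -0.026 in wild type. Over all 19938 genes 48.7% lay above 0 in Duox2-/-, 0.466% were 2-fold lower and 0.221% were 2-fold higher. Muscle, tooth and vomeronasal genes mark tissues that lie beside the mucosa in the nose. The amount of such tissue in each array was not measured by other means, and its part in the differences was not tested.

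**Figure D4:**
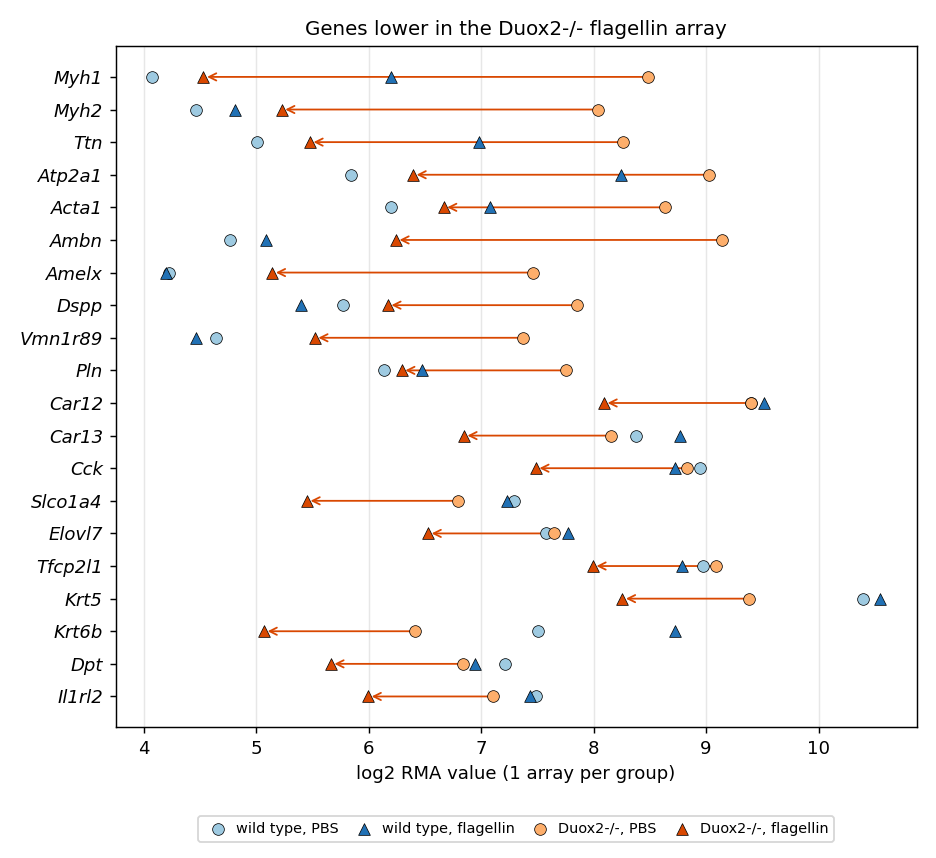
Log2 RMA values (horizontal axis) of 20 genes that were at least 2-fold lower in the Duox2-/- flagellin array than in the Duox2-/- PBS array, drawn as circles for PBS and triangles for flagellin, blue for wild type and orange for Duox2-/-, with the arrow from PBS to flagellin in Duox2-/-. In the upper 10 genes, Myh1 to Pln, the Duox2-/- PBS array is the highest. In the lower 10, Car12 to Il1rl2, the Duox2-/- flagellin array is the lowest, as for Car12 at 8.09 and Cck at 7.49.

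The 63 lower genes were sorted by which Duox2-/- array lay outside both wild-type arrays by at least 0.5. In 32 it was only the PBS array, above wild type; in 24 only the flagellin array, below wild type; in 4 both and in 3 neither. This rule was chosen after the values were seen. Muscle, tooth and vomeronasal genes belong to the group with a high PBS array, save Myh4, where neither array lay outside. Several of them were bright through that array alone. Of the 63 genes, 20 were also 2-fold lower in the Duox2-/- flagellin array than in the wild-type PBS array.

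The 24 genes with a low flagellin array included keratins, carbonic anhydrases and transporters of epithelium. Several of those named here lie outside the 25 lowest and were picked after their values were seen. Krt5, the keratin of basal cells, read 10.40, 10.55, 9.38 and 8.26, and Krt6b, a keratin of stressed epithelium, read 7.51, 8.73, 6.41 and 5.07. Both were lower in the Duox2-/- arrays than in wild type already with PBS, and lower again with flagellin, by -1.12 and -1.34. In wild type Krt6b was at 1.22. Serpinb5, the epithelial serpin maspin, read 6.15, 6.61, 5.61 and 4.45 and was at -1.17, with both Duox2-/- arrays under the level for bright genes.

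Car12, a membrane-bound carbonic anhydrase, read 9.40, 9.52, 9.40 and 8.09, and Car13, a cytosolic one, read 8.37, 8.77, 8.15 and 6.85. Cck, the peptide cholecystokinin, read 8.95, 8.73, 8.83 and 7.49. In these 3 genes the Duox2-/- flagellin array stood alone below the other arrays, and the Duox2-/- differences were -1.31, -1.30 and -1.34. Slco1a4, an organic anion transporter, read 7.29, 7.23, 6.79 and 5.45, and Tfcp2l1, a transcription factor of secretory and ion-transporting epithelium, read 8.98, 8.79, 9.09 and 7.99. Elovl7, a fatty acid elongase, was at -1.12, and Fads2b, of the fatty acid desaturase family, at -1.57. Atp2a3, a calcium pump of the endoplasmic reticulum, read 10.59, 10.14, 10.22 and 9.02, and Olfm4, an olfactomedin of epithelium and neutrophils, read 7.94, 8.84, 7.47 and 6.19. Olfm4 was at 0.90 in wild type, on the other side of 0.

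Markers of stroma and vessels were lower as lists. Over all bright genes 37.8% lay above 0 in Duox2-/- and 49.5% in wild type. Fibroblast and collagen genes had a median of -0.39 with 28 of 32 below 0, and 0.20 with 4 of 32 below 0 in wild type. Dpt, dermatopontin of the dermal matrix, read 7.21, 6.95, 6.84 and 5.66 and Ogn, osteoglycin, was at -0.98. Endothelial markers had a median of -0.31 with 21 of 26 below 0, and -0.063 with 18 of 26 below 0 in wild type. In Duox2-/- the sialomucin Emcn was at -0.96, the VEGF receptor Flt1 at -0.79 and the junction protein Cdh5 at -0.78. Smooth muscle and pericyte markers had a median of 0.080 in wild type and -0.31 in Duox2-/-, with the smooth muscle myosin Myh11 at -1.22 and Pln, phospholamban, at -1.46.

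Basal cell markers had a median of -0.022 with 11 of 17 below 0 in wild type, and of -0.32 with 14 of 17 below 0 in Duox2-/-. Besides Krt5, Krt15 was at -0.93, Itga6, the integrin of hemidesmosomes, at -0.79 and Trp63, the master regulator of basal cells, at -0.44. The arrays behind these lists differed. For fibroblast genes the Duox2-/- PBS array was the highest of 4 in 22 of 32, whereas for basal cell genes the Duox2-/- flagellin array was the lowest of 4 in 14 of 17. All genes with mean levels of 8 to 9 and of 9 and above had medians of -0.13 and -0.12, and these list medians are to be read beside them. Under quantile and loess normalisation the 4 lists stayed below 0, at -0.31 and -0.30 for fibroblasts and -0.25 and -0.21 for basal cells. Ciliated cell markers had a median of -0.033, with Sntn, an apical protein of cilia, at -0.89.

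**Figure D5:**
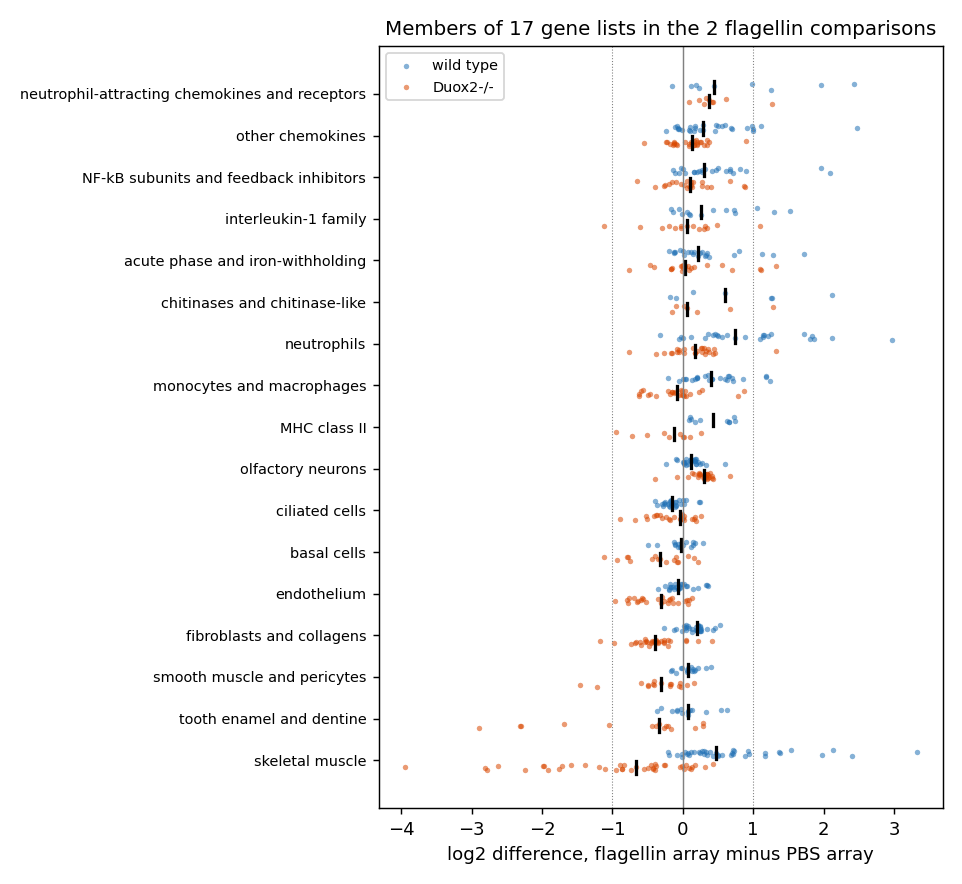
Flagellin minus PBS differences (log2, horizontal axis) for the members of 17 gene lists (rows), blue for wild type and orange for Duox2-/-. Each point is a gene, black bars are list medians and dotted lines mark 2-fold. Skeletal muscle shows medians on opposite sides of 0, -0.67 in Duox2-/- and 0.47 in wild type, and the points of the defence lists reach further right in wild type than in Duox2-/-.

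Genes that handle oxidants differed little. Of the oxidases and peroxidases, 14 of 18 lay above 0 in Duox2-/- and 17 of 18 in wild type, and their medians were 0.16 and 0.26. Over all 19938 genes 48.7% lay above 0 in Duox2-/-. Of these oxidases and peroxidases 8 were bright, and dim genes as a class had 66.9% above 0 and a median of 0.10. Cybb, the catalytic subunit of the phagocyte oxidase, was at -0.22 in Duox2-/- and 1.12 in wild type, and Mpo, the neutrophil peroxidase, at 0.33 and 1.14. Enzymes that remove peroxide had a median of -0.098 with 12 of 18 below 0 in wild type, and of -0.15 with 15 of 18 below 0 in Duox2-/-. Among all genes with mean levels of 8 to 9, 26.2% lay above 0 in Duox2-/-, and at 9 and above 24.5% did. Cat, catalase, was at -0.54 and Gpx1, a glutathione peroxidase, at -0.43. The Duox2-/- median of these enzymes was -0.055 under quantile and -0.043 under loess normalisation. Targets of the oxidant sensor NRF2 had 12 of 27 above 0, with Slc7a11, the cystine transporter, at 0.35 in Duox2-/- and 1.02 in wild type, and a median that was -0.022 as deposited and 0.080 under loess.

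Among the other lists, heat shock chaperones had a median of -0.20 and none of 17 above 0, though 4 lay above 0 under loess. Clock genes had a median of -0.23 in Duox2-/- and -0.36 in wild type, with Bhlhe40, a clock repressor, at -0.66 and -0.34. Pdk4, a glucocorticoid-induced kinase of fuel use, was at -0.88 and Tsc22d3, the glucocorticoid-induced leucine zipper, at -0.50. Interferon-stimulated genes had a median of -0.035, although Oas1a, an antiviral synthetase, was at 0.75 in Duox2-/- and 0.065 in wild type. Oas1a was bright through the Duox2-/- flagellin array alone, so it had to be higher there. Of all 48 lists, 23 had a median above 0 and 25 below, with 2 at 0.25 or more and 6 at -0.25 or less.

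The genes that were higher in wild type were read in the Duox2-/- pair as well. Leaving out receptors, predicted genes, antigen receptor segments and small RNA genes, 61 bright genes were 2-fold higher in the wild-type pair. They were chosen by that pair, so their wild-type values are a description. In Duox2-/-, 33 of 61 lay above 0, 5 were 2-fold higher (Moxd2, Lcn2, Chil4, Cxcl2 and Il1b), 10 were 2-fold lower, and the median was 0.019. The 10 were 9 skeletal muscle genes and Krt6b. Over all 11537 bright genes of this kind, 4075 lay above 0 in Duox2-/-, 8 were 2-fold higher and 53 were 2-fold lower. Their median was -0.081. Of the 8 genes of this kind that were 2-fold higher in Duox2-/-, 4 had the larger difference in wild type (Moxd2, Lcn2, Cxcl2 and Il1b), while Chil4, Bpifb5, Olfm5 and Serpina3n had the larger one in Duox2-/-. Olfm5 was bright through the Duox2-/- flagellin array alone, so its Duox2-/- difference had to be above 0.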

How the data were processed

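Total RNA of mouse nasal mucosa was measured on 4 Affymetrix arrays, 1 per group. The authors deposited log2 values. Per the submitters' processing notes, the tools were RMA and Affymetrix Expression Console 1.1. RMA subtracts background, matches probe distributions between arrays and combines the probes of a probe set. Low values were read as near background.

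Of 35556 probe sets, 21789 are paired with exactly 1 gene symbol, 1621 with several and 12146 with none listed. Each gene took its brightest probe set by 4-array mean (19938 genes; 999 had several). A gene was called bright, and ranked, if its highest value reached 6.52, the median of all values (12471 genes). Differences are flagellin minus PBS, counted at 2-fold, with no test. Bright probe sets of several genes (939) had 4 at least 2-fold higher and 24 lower in the Duox2-/- pair, and those with no listed gene (5018) had 28 and 101.

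Named genes were the 25 highest and 25 lowest bright genes outside receptors, predicted, segment and small RNA genes, the 5 largest differences and all 2-fold members of each of 48 lists, the Duox genes, the 3 highest and lowest predicted and receptor genes, and the 8 largest differences between genotypes each way. Other genes named were chosen after their values were seen. The comparison and the lists were chosen with earlier results of these data known. Of 1119 list memberships, 1013 were matched. Sequences came from RefSeq tables (GRCm38.p6).

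Alternatives were centring, quantile and cyclic loess normalisation, filters, the mean of probe sets, other sizes and another PBS array. Python 3.11.15, numpy 2.4.6, pandas 2.3.3, matplotlib 3.10.9 and R 4.3.3 with limma 3.58.1 were used. The steps were tested on simulated data.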

Additional observations from a re-analysis of the deposited data

Results flagged for a closer look

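In 10 bright genes the flagellin arrays moved to opposite sides of their PBS arrays in the 2 genotypes, by at least 2-fold on each side. With 1 array per group the difference was not tested. The Duox2-/- difference minus the wild-type difference was -6.08 for Myh1, -5.03 for Atp2a1, -4.76 for Ttn, -4.43 for Myh4 and -3.61 for Tnnt3. It was -3.52 for Myl1, -3.29 for Neb, -2.75 for Mybpc1 and -2.55 for Tnnc2. These 9 are skeletal muscle genes. Krt6b, a keratin of stressed epithelium, was at -2.56.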

How the results depend on the processing

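No paired analysis was possible because each group had 1 array, and for the same reason no array could be left out. The counts of 22 higher and 63 lower genes became 21 and 62 with arrays centred on a common median, 30 and 61 with quantile normalisation (20 and 56 shared), 19 and 58 with cyclic loess (17 and 55 shared) and 22 and 61 with the mean of a gene's probe sets. They were 44 and 93 with no filter on dim genes, 15 and 42 with the filter on the Duox2-/- mean, 12 and 55 without receptor genes, 21 and 44 without muscle, tooth, squamous, cartilage, bone and gland genes, 124 and 390 at 1.5-fold and 3 and 16 at 3-fold. The differences of all 298 named genes and the medians of all 48 lists moved by less than the spread over genes, 0.231, under the 3 normalisations and the probe set mean. So did 42 of 48 medians over bright members alone. Most list medians were themselves smaller in size than 0.231, so this limit cannot show whether they hold. Under loess the acute phase list went from 0.025 to -0.025 and the NRF2 list from -0.022 to 0.080. The chitinase, T and NK cell, B and plasma cell, dendritic cell, sustentacular and adipocyte lists also changed sign under loess. The 8 list medians of largest size kept their sign under loess.

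With the wild-type PBS array as reference, an alternative chosen after seeing the data that adds genotype to the difference, the counts were 200 and 161 (15 and 20 shared). Of 48 list medians 22 moved by more than that spread and 13 changed sign, among them skeletal muscle at 0.48, tooth enamel and dentine at 0.51 and fibroblasts and collagens at 0.045. Of 298 named genes 55 changed sign, 26 of them among the 52 at least 2-fold apart: Acta1 0.47, Actn2 0.14, Ambn 1.47, Amelx 0.92, Atp2a1 0.55, Calr4 0.23, Chil4 -0.32, Dspp 0.40, Enam 0.74, Mybpc1 0.63, Myh1 0.46, Myh2 0.76, Myh4 0.55, Myl1 0.67, Myom1 0.046, Myot 0.28, Neb 0.48, Pln 0.15, Pygm 0.077, Serpina3n -0.53, Tnnc2 0.97, Tnnt3 0.46, Ttn 0.47, Vmn1r85 0.86, Vmn1r89 0.88 and Vmn2r1 0.10. For Chil4 and Serpina3n the Duox2-/- PBS array was below, and for the others above, the wild-type PBS array. Genes near background carry little information, and 1 array per group limits every value.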
